A study of Mus musculus with 4 samples.

Results

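The genes of the cytosolic ribosomal proteins were followed across 4 arrays of sorted mouse bone marrow cells. A gene was included when its symbol was Rpl or Rps with a number and at most 1 letter, or Rplp0, Rplp1, Rplp2 or Rpsa, and when at least 1 probe set was annotated to it alone. This gave 46 of the 18193 measured genes, read by 100 of 45037 probe sets: 22 genes of the small subunit, 22 of the body of the large subunit, and Rplp0 and Rplp2 of its stalk. A further 28 genes with such symbols were read only by probe sets annotated to several genes, and are not named here. The members were chosen by symbol and not by their values.

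The cells came from adult recipient mice of the immunodeficient strain NOD.CB17-Prkdc scid/J, whose scid mutation all 4 samples share and which blocks the maturation of B and T cells. They were sorted as Lin- CD45- CD31- Sca1- CD51+, a combination aimed at bone-forming cells, from either the trabecular bone area or the long bone area of the marrow. There were 2 arrays per area, called biological replicates in the labels. The title of the series concerns human blood stem cells and the mice are called recipients, but what they received, when, how many mice went into each sample and their age beyond adult are not given in the labels, so p-values here measure only the spread between these samples, which may in part be technical.

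Each ribosome joins a small subunit, which reads the mRNA, to a large subunit, which forms the peptide bond. About as many ribosomal protein genes exist as there are proteins in the particle, and their products are needed in matched amounts. Most of their mRNAs begin with a tract of pyrimidines, the TOP element, through which the kinase mTOR and the binding protein Larp1 adjust their translation with nutrient supply. Blood formation is sensitive to a shortage of single ribosomal proteins, and inherited loss of a copy causes Diamond-Blackfan anaemia.

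Every value is a log2 reading from which the median of the probe set over the 4 arrays was taken off, so a gene has differences and no level, and genes cannot be ranked by abundance. For this reason the presence of osteoblast markers could not be read either. Of the osteoblast markers listed 13 were measured, and all 13 were lower in the trabecular samples, as were all 17 chondrocyte markers, with median differences of -0.96 and -2.77. The hybridisation controls, transcripts spiked into every sample, differed between the areas by a median of -0.39, which is trabecular minus long bone, as in every difference below. Long bone array 2 stood apart. The 5' probe set of the Gapdh control, read against its 3' probe set to follow RNA integrity, was at -1.16 there and at -0.09 to 0.31 elsewhere, and the markers of reticular stroma had a median of 1.60 there. The same reading of the Actb control set trabecular array 1 apart instead, at 0.44 against -0.07 to 0.07 on the others. In bulk samples a smaller share of a cell type and less RNA per cell cannot be told apart.

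The ribosomal protein genes differed little between the areas. Their median log2 difference was 0.11, against 0.03 over all genes, and 33 of 46 had a higher mean in the trabecular area, against 54.6% of all genes. The differences ran from -0.50 for Rpl39l to 0.86 for Rps4l, and the middle part of the members lay between -0.02 and 0.28. Read from bright probe sets alone, as explained below, the median was 0.09 for the members and 0.20 over all genes. The members thus lay below all genes of like brightness. With limma and Benjamini-Hochberg adjustment over all genes 0 of 46 members passed an adjusted p of 0.05, as did 0.0% of all genes, and the lowest adjusted p among the members was 0.240. At an unadjusted p under 0.05 there were 3 members, Rps9, Rpl8 and Rps4l, all higher, which is 6.52% of the members against 15.5% of all genes (10.8% higher and 4.62% lower). Ordinary t statistics and a trend in the prior variance also left 0 members at the adjusted threshold, against 1 and 40 of the 18193 genes. Centring the arrays on the hybridisation controls, which moved the median of all genes from 0.03 to 0.43, called 3 members as higher, Rps9, Rpl8 and Rps3, and 2857 of the 18193 genes.

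Most members overlapped between the areas. Both trabecular values lay above both long bone values for 9 members, or 19.6%, against 29.9% of all genes. They lay below both for 2 members, Rpl39 and Rpl39l, against 21.4% of all genes. The balance depended on which arrays entered. The median of the members was -0.11 without trabecular array 2 and -0.05 without long bone array 1, when 17 and 21 members were higher. Without trabecular array 1 and long bone array 2 it was 0.37 and 0.28. Over all genes the medians with 1 array left out lay between 0.01 and 0.05.

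**Figure D1:**
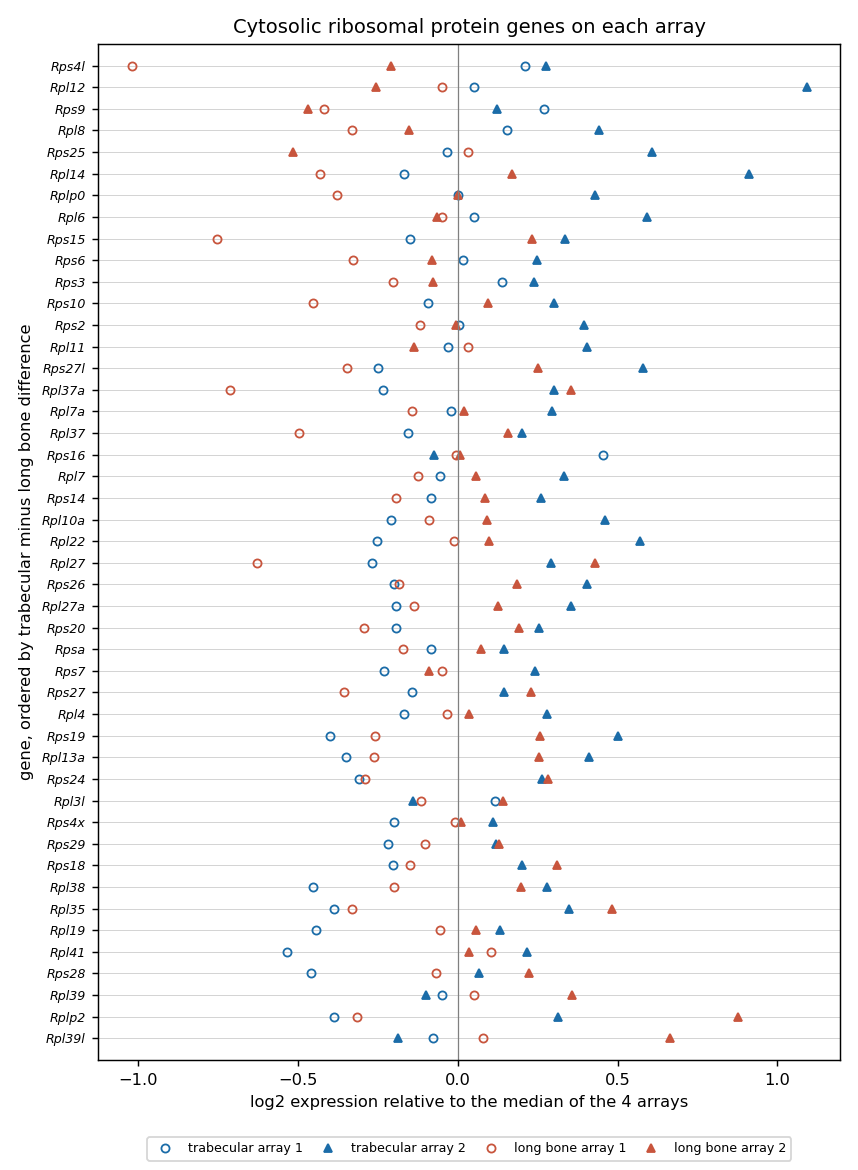
Centred log2 expression (horizontal axis) of each of the 46 ribosomal protein genes, 1 row per gene, ordered by the difference between the areas. Blue marks are trabecular and red marks long bone samples, open circles array 1 and filled triangles array 2 of an area. In most rows both triangles lie to the right of both circles, whatever their colour.

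The larger contrast ran between the arrays of the same area. In the trabecular area the median of the members was -0.16 on array 1 and 0.28 on array 2. In the long bone area it was -0.18 on array 1 and 0.10 on array 2. Over all genes the corresponding medians were 0.02, 0.00, -0.03 and 0.01. The arrays numbered 2 were thus the high ones in both areas, and the arrays numbered 1 the low ones. Array 2 read above array 1 in both areas for 35 of 46 members, or 76.1%, against 20.4% of all genes. Within the trabecular area alone 41 members were higher on array 2, against 41.2% of all genes, and within the long bone area 39, against 56.2%. The reverse held in both areas for 1 member, Rps9, against 22.8% of all genes. The labels do not say that a number stands for a shared mouse, day or batch, and this contrast was noticed in the data and carries no test.

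Taken gene by gene, the difference between the arrays of an area had a median of 0.45 in the trabecular and 0.27 in the long bone area, against -0.04 and 0.04 over all genes. In 41 members the larger of these within-area differences exceeded the difference between the areas, which was so for 64.2% of all genes. Trabecular array 2 held the highest value of the 4 for 32 members and long bone array 2 for 12. Trabecular array 1 was the highest for the remaining 2, Rps16 and Rps9, and long bone array 1 for 0. The lowest value lay on long bone array 1 for 19 members and on trabecular array 1 for 18.

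Which trabecular array was set against which long bone array therefore decided the direction. Of the 46 members 42 were higher on trabecular array 2 than on long bone array 1, with a median of 0.54. Of all genes 54.4% were higher there, with a median of 0.03. On trabecular array 1 against long bone array 2 only 12 members were higher, with a median of -0.32, against 52.1% of all genes and a median of 0.02. The pairs with equal numbers gave medians of 0.08 for arrays 1 and 0.19 for arrays 2, against 0.06 and -0.0014 over all genes.

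**Figure D2:**
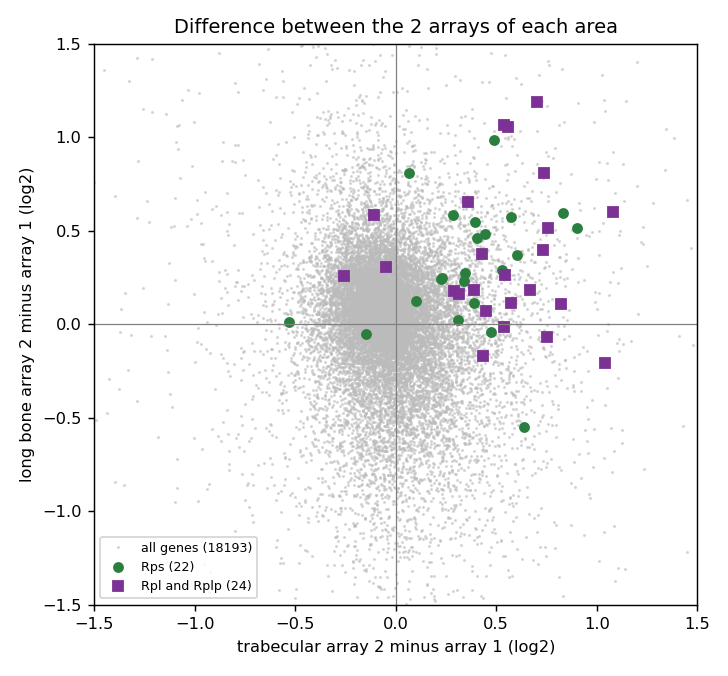
Array 2 minus array 1 on the log2 scale in the trabecular area (horizontal axis) and in the long bone area (vertical axis). Grey points are all 18193 genes, of which 268 lie outside the axes, green circles the 22 small subunit genes and purple squares the 24 large subunit genes. The ribosomal protein genes sit mostly above 0 on both axes, where 35 of 46 lie, while the cloud of all genes is centred near 0.

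Other readings were set beside this contrast. The 3 probe sets for 18S rRNA, the RNA of the small subunit, had a median of -0.42 on trabecular array 1 and 0.16 on trabecular array 2. In the long bone area their medians were -0.23 and 0.06, so this median too was higher on array 2 in both areas. The 3' probe set did not share the order in the long bone area, at 0.11 and -0.08. The labelling controls had medians of -0.30 and 0.28 in the trabecular area but 0.42 and -0.75 in the long bone area. The part of RNA quality or labelling in the contrast was not tested.

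Markers of blood cells, which the Lin- CD45- gate is meant to remove, were read beside the contrast. The neutrophil list was split. Its primary granule genes Mpo, Elane, Prtn3 and Ctsg, which are made in early granulocyte precursors, were higher on array 2 in both areas. Elane read -1.04 and 0.69 in the trabecular area and -0.69 and 0.82 in the long bone area, and Ctsg -1.07 and 1.06 against -0.44 and 0.44. The step from array 1 to array 2 was 0.91 to 2.12 in the trabecular area over these 4 genes and 0.23 to 1.51 in the long bone area, for most of them more than the members' medians of 0.45 and 0.27. The other 12 measured neutrophil markers, among them Mmp8, Mmp9 and Cxcr2 of later stages, did not share this order in both areas. For 8 of these 12 array 2 was below array 1 in both areas.

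Vpreb1, a marker of B cell precursors, read -1.30 and 0.63 against -0.63 and 2.42, and Nkg7, of cytotoxic cells, -0.77 and 1.14 against -0.36 and 0.36. In all, array 2 was above array 1 in both areas in 6 of 10 erythroid, 6 of 15 B and plasma cell and 4 of 16 neutrophil markers. It was so in 3 of 12 T and NK cell, 0 of 15 macrophage and 3 of 13 osteoblast markers, against 20.4% of all genes. The reverse held in both areas in 8 neutrophil, 6 macrophage, 5 T and NK cell and 2 osteoblast markers. It held in 0 erythroid and 0 B and plasma cell markers, against 22.8% of all genes. The erythroid medians were -0.05 and 0.09 in the trabecular area and -0.14 and 0.23 in long bone, and those of the B and plasma cell list -0.07 and -0.04 against -0.06 and 0.24. Both lists were thus highest on long bone array 2, where the members were highest on trabecular array 2. The genes singled out here were chosen after their values were seen. Whether a marker is expressed at all cannot be read from centred values, and the part of such cells in the contrast was not tested.

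The small subunit genes had a median difference between the areas of 0.12, with 17 of 22 higher and 5 higher with no overlap, where 29.9% of all genes were. Rps9, Rps3 and Rps2 encode the proteins around the channel through which mRNA enters the small subunit. Rps9 had the widest gap between the areas. In the trabecular area it read 0.27 on array 1 and 0.12 on array 2, and in the long bone area -0.42 and -0.47, so the trabecular values stood clear of the long bone values by 0.54. The difference was 0.64 (SE 0.13, 95% interval 0.30 to 0.98), a 1.56-fold higher mean, at an unadjusted p of 0.00541 and an adjusted p of 0.240 with limma. Its 3 probe sets gave differences of 0.51, 0.66 and 0.75, and in the 1 with 0.66 the areas overlapped.

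Rps3 read 0.14 and 0.24 in the trabecular area and -0.20 and -0.08 in the long bone area, a difference of 0.33 (SE 0.13). Its 3 probe sets disagreed, at -0.23, 0.47 and 0.75. Rps2 was 0.00 and 0.39 against -0.12 and -0.00, and the areas were parted by only 0.0098. Both genes were higher on array 2 in both areas. Rps2 depended on trabecular array 2, without which its difference of 0.26 was 0.07.

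Rps6, the substrate of the S6 kinases that act below mTOR, read 0.02 and 0.25 on the trabecular arrays and -0.33 and -0.08 in long bone. The areas did not overlap, and the difference was 0.34 (95% interval -0.10 to 0.77). It was 0.22 without trabecular array 2 and 0.21 without long bone array 1. Rpsa, also known as the precursor of the laminin receptor, read -0.08, 0.14, -0.17 and 0.07 in the same order of arrays, with a difference of 0.08. Its arrays 2 were above its arrays 1 and the areas overlapped.

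Several small subunit genes showed the contrast between arrays of an area with almost no difference between the areas. Rps19, the gene most often mutated in Diamond-Blackfan anaemia, read -0.40 and 0.50 in the trabecular area and -0.26 and 0.26 in the long bone area, a difference between the areas of 0.05 (95% interval -0.92 to 1.02). Rps24, another gene of that disease, read -0.31 and 0.26 against -0.29 and 0.28, a difference of -0.02. Within each area these genes moved by more than the areas stood apart, so the intervals are wide and leave room for a change in either direction.

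Rps14, whose loss of a copy underlies the anaemia of the 5q- syndrome in humans, read -0.08 and 0.26 against -0.19 and 0.08, a difference of 0.14 (95% interval -0.36 to 0.64). Rps4x, an X-linked gene, read -0.20 and 0.11 against -0.01 and 0.01, a difference of -0.05. Rps27 read -0.14 and 0.14 against -0.36 and 0.23, with a difference of 0.06. The areas overlapped for all 3. Leaving out single arrays turned the sign of each, to -0.03 for Rps14 without trabecular array 2, to 0.11 for Rps4x without trabecular array 1, and to -0.23 for Rps27 without long bone array 1.

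A few small subunit genes departed from the common order. Rps16 was high on trabecular array 1 alone, at 0.45, against -0.08, -0.01 and 0.01 on the others. Rps25, which some viral mRNAs need to start translation, was high on trabecular array 2, at 0.61, and low on long bone array 2, at -0.51. Its remaining values were -0.03 on trabecular array 1 and 0.03 on long bone array 1, so its difference of 0.53 came with an overlap between the areas. Rps28, which kept the common order, had the lowest difference of the subunit, -0.27, with values of -0.46 and 0.07 against -0.07 and 0.22.

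The large subunit genes had a median difference of 0.11, with 15 of 22 higher, 3 of them with no overlap, and 2 lower with no overlap, against 29.9% and 21.4% of all genes. Rpl8, which reaches close to the centre where the peptide bond forms, read 0.15 and 0.44 in the trabecular area and -0.33 and -0.15 in the long bone area. The difference was 0.54 (SE 0.16, 95% interval 0.11 to 0.97), with an unadjusted p of 0.0244 and an adjusted p of 0.277 with limma. The trabecular values stood clear by 0.31. Array 2 was also the higher of the pair within both areas.

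Rpl12, which sits at the base of the stalk, had its difference of 0.73 from 1 array. It read 1.09 on trabecular array 2, against 0.05 on trabecular array 1 and -0.05 and -0.26 on the long bone arrays, and without trabecular array 2 the difference was 0.20. Rpl6 read 0.05 and 0.59 against -0.05 and -0.06, and its difference of 0.38 was 0.11 without trabecular array 2. Rpl14 read -0.17 and 0.91 against -0.43 and 0.17, and the areas overlapped. The highest value of each of these genes was on trabecular array 2.

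Rpl39, a small protein in the wall of the tunnel through which the new peptide leaves, was lower in the trabecular area, at -0.05 and -0.10 against 0.05 and 0.36. The difference was -0.28 (95% interval -0.69 to 0.14), and -0.13 without long bone array 2. Rpl41, among the shortest proteins known, read -0.53 and 0.22 against 0.10 and 0.04, and Rpl19 read -0.44 and 0.13 against -0.06 and 0.06. Trabecular array 1 was the low one in both, and the areas overlapped.

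Rpl11 holds back the p53 inhibitor Mdm2 when ribosome assembly fails. It read -0.03 and 0.41 in the trabecular area and 0.03 and -0.14 in the long bone area, a difference of 0.24 (95% interval -0.28 to 0.76) with an overlap, and 0.02 without trabecular array 2. Rpl22, needed for T cell development, read -0.25 and 0.57 against -0.01 and 0.10. Rpl38, which supports the translation of Hox mRNAs in the embryo, read -0.45 and 0.28 against -0.20 and 0.20. The differences of these last genes were 0.12 and -0.09, and both turned sign when a single array was left out, to -0.30 for Rpl22 without trabecular array 2 and to 0.28 for Rpl38 without trabecular array 1.

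The stalk recruits the elongation factors to the ribosome. Its base protein Rplp0 read 0.00 and 0.43 in the trabecular area and -0.38 and -0.00 in the long bone area. The areas were parted by only 0.00073, and the difference was 0.40 (95% interval -0.19 to 1.00), or 0.19 without trabecular array 2 and 0.22 without long bone array 1. Rplp2, which forms the outer stalk, read -0.39 and 0.31 against -0.31 and 0.88, a difference of -0.32 (95% interval -1.58 to 0.95). It had the largest mean difference between arrays 2 and 1 of all members, 0.95, and its difference between areas turned to 0.28 without long bone array 2.

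**Figure D3:**
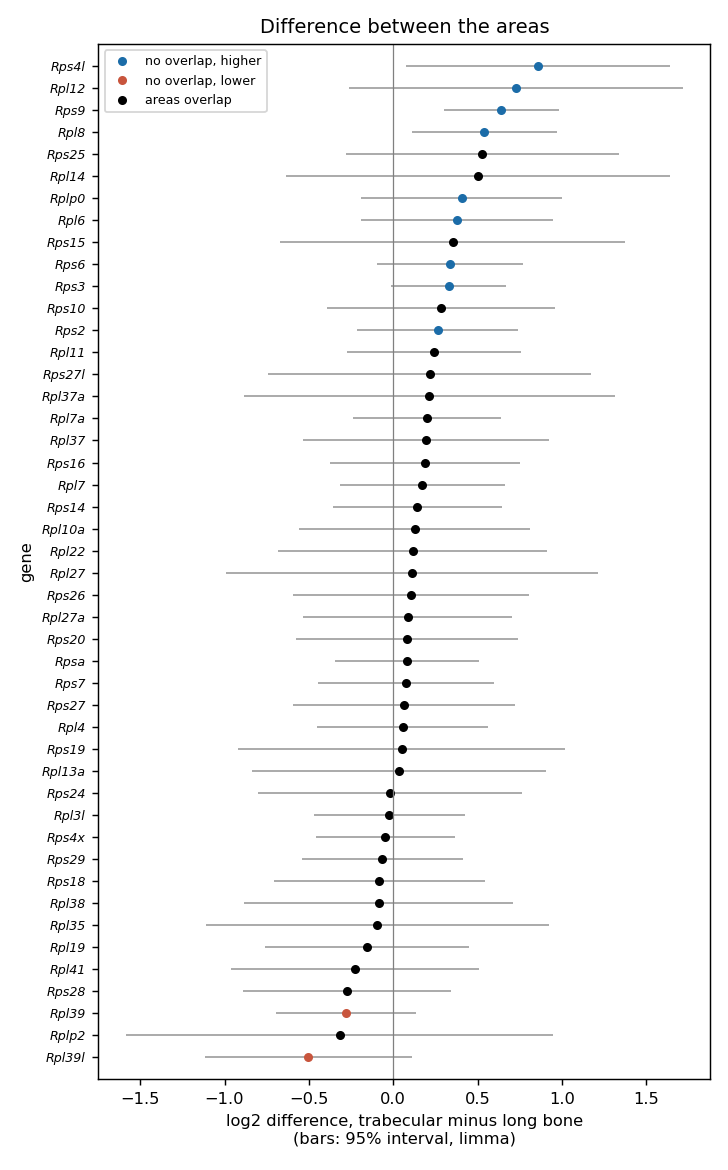
Difference between the areas for each ribosomal protein gene, as trabecular minus long bone mean on the log2 scale, with the 95% interval of the limma fit as a bar. Blue points mark the 9 genes whose trabecular values both lay above the long bone values, red points the 2 with the reverse, and black points the genes whose areas overlap. The bars of Rps9, Rpl8 and Rps4l alone leave out 0, before adjustment.

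Some members are paralogs of the common ribosomal protein genes, and 4 of the 5 listed were measured. Of these 4, Rps4l and Rps27l were higher on array 2 in both areas, and Rpl39l and Rpl3l were not. Rps4l, a copy of Rps4x that RefSeq lists as a transcribed pseudogene, had the largest difference of all members. It read 0.21 and 0.28 against -1.02 and -0.21, with a difference of 0.86 (SE 0.29, adjusted p = 0.302 with limma) and 0.45 without long bone array 1. Rpl39l, the form of Rpl39 found in male germ cells, read -0.08 and -0.19 against 0.08 and 0.66, with a difference of -0.50 (95% interval -1.12 to 0.11) and -0.21 without long bone array 2.

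Rpl39 and Rpl39l shared their order over the arrays, lowest on trabecular array 2 and highest on long bone array 2. The difference of Rpl39 turned to 0.12, and that of Rpl39l shrank to -0.10, when arrays were centred on the hybridisation controls. Rpl3l, which replaces Rpl3 in heart and skeletal muscle, stayed within 0.14 of the 4-array median on all arrays. Rps27l, a paralog of Rps27 induced by p53, read -0.25 and 0.58 against -0.35 and 0.25, a difference of 0.21 (95% interval -0.74 to 1.17). It followed the contrast between arrays as Rps27 did, and the areas overlapped. Without the measured paralogs the median difference of the other 42 members was 0.11. Of these 42 members 33 were higher on array 2 in both areas, against 20.4% of all genes.

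Genes whose inherited loss causes Diamond-Blackfan anaemia are spread over both subunits, and 13 of the 22 listed were measured. Of these 9 were higher in the trabecular area, 1 of them, Rpl8, with no overlap, against 54.6% and 29.9% of all genes. The median difference was 0.08. On the arrays their medians were -0.22 and 0.29 in the trabecular area and -0.29 and 0.19 in the long bone area. In both areas 11 of 13 were higher on array 2, or 84.6%, near the 76.1% of all members, against 20.4% of all genes.

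The contrast between arrays was not even across probe sets. The suffix of a probe set tells how specific its probes are: sets ending in _s_at or _x_at can read related transcripts, sets ending in _a_at read variants of 1 gene, and the rest are meant to be unique. Array 2 was above array 1 in both areas in 41 of the 43 members' probe sets of the first kind (95.3%, against 27.4% of all such probe sets), in 21 of 26 of the second kind and in 15 of 31 of the third (48.4%, against 19.9%). The median difference between the areas was -0.07, 0.15 and 0.16 in these classes. Over all probe sets of these classes it was 0.08, 0.14 and -0.03. Whether cross-reading of pseudogene transcripts takes part in this was not tested.

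Brightness was read from the number steps of the deposited values. Of 96 members' probe sets with a readable step 83 had that of levels of 8 and above before centring, or 86.5%, against 34.7% of all readable probe sets. These bright probe sets were higher on array 2 in both areas in 68 of 83 cases, and those of levels 4 to 8 in 7 of 13, against 20.7% and 20.8% of all probe sets in these bands. The share was thus alike in both bands over all probe sets, while over the members' it was 81.9% in the bright band and 53.8% in the dimmer. The part of brightness in the contrast was not tested. The median difference between the areas over bright probe sets of all kinds was 0.17, and over the members' it was 0.06.

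Of the 23 members with several probe sets, 10 had probe sets on both sides of 0, and the median span was 0.41. Rps18 spanned the most, from -0.66 to 0.49 over 6 probe sets, followed by Rps3 and by Rpl37a, which ran from -0.15 to 0.79. Rps10, read by 6 probe sets as well, was higher in all of them, by 0.09 to 0.52. For these 10 genes the sign of the difference depends on the probe set read.

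Probe sets that list a ribosomal protein gene together with other genes gave a reading that the members did not use. There were 110 of them, with medians of -0.17 and 0.28 on the trabecular and -0.14 and 0.10 on the long bone arrays. Array 2 was above array 1 in both areas in 86 of them, or 78.2%, against 20.9% of all probe sets. The median difference between the areas was 0.03. They come from the same 4 RNA samples as the members and are no independent replicate of the contrast.

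The starts of the genes were read from RefSeq promoters of GRCm38.p6, which held 40 of the 46 members, some with several starts, of which a match at any counted. A window of 30 bases around the annotated start, 15 before and 15 after, was searched on the strand of the gene for CTTTC or CTTTT, letters that pyrimidine tracts of TOP mRNAs often hold. It was present in 13 of 40 members (32.5%), against 8.11% of all genes in the table, 7.24% of the other measured genes and 4 of 67 mitochondrial ribosomal protein genes. The annotated start can lie some bases away from the real start of transcription, so a window without these letters says nothing about the mRNA. The windows of members described above are shown with each match in capitals, 6 with the letters and 2, of Rps9 and Rpl39, without.
Rps6: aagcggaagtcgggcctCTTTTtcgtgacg
Rpl12: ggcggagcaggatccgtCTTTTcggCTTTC
Rpl38: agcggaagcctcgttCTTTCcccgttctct
Rplp2: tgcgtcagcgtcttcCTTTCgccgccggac
Rps27: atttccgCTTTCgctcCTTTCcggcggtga
Rpl39l: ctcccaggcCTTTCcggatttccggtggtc
Rps9: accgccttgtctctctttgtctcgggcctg
Rpl39: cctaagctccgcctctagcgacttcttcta
These windows lie at chr4:86857353-86857382 (Rps6, minus strand), chr2:32961697-32961726 (Rpl12, plus strand), chr11:114668565-114668594 (Rpl38, plus strand) and chr7:141447636-141447665 (Rplp2, plus strand). The others lie at chr3:90213634-90213663 (Rps27, minus strand), chr16:10170213-10170242 (Rpl39l, plus strand), chr7:3704026-3704055 (Rps9, plus strand) and chrX:37085208-37085237 (Rpl39, minus strand). Each spans the end of the promoter and the beginning of the first exon. Rps9 and Rpl39, which departed from the common order of the arrays, had no match, but Rpl12 and Rpl39l departed from it with a match.

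The 13 members with a match had a median difference of 0.06 between the areas and differed between arrays 2 and 1 by 0.55 and 0.40 in the trabecular and long bone areas. The 27 without had medians of 0.13, 0.49 and 0.24. Array 2 was above array 1 in both areas in 11 of 13 and 18 of 27, against 76.1% of all members and 20.4% of all genes. The core CGGAAG, which ETS family factors bind, was searched on both strands of the 300 bases from 250 before to 50 after the start. It was present in 29 of 40 members (72.5%), in 38 of 67 mitochondrial ribosomal protein genes (56.7%), in 27.0% of the other measured genes and in 18.8% of all genes in the table.

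Some ribosome genes have names that the rule leaves out. Rps3a1, a small subunit protein, read -0.09 and 0.45 against 0.03 and -0.03, a difference of 0.18. Fau, whose product carries the small subunit protein Rps30, differed by 0.24, the paralog of Rpl22 named Rpl22l1 by 0.32, and Rpl7l1 by 0.64. Of the last 3, only Rpl22l1 was higher on array 2 in both areas. Rpl7l1 alone of these 4 genes had no overlap, at 0.18 and 0.37 against -0.17 and -0.56.

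Mitochondrial ribosomes make a few subunits of the respiratory chain, and their proteins come from separate nuclear genes. Their median difference was 0.30, and of 76 genes 63 had the higher mean in the trabecular samples, in 39 cases without overlap, against 29.9% of all genes. The cytosolic members had 33 of 46, 9 and 0.11. No test of the difference between the families was made. The mitochondrial medians were 0.03 and 0.21 in the trabecular and -0.19 and -0.02 in the long bone area, so that both trabecular medians lay above both long bone medians, which they did not for the cytosolic members. Array 2 was above array 1 in both areas in 60.5% of them.

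Genes that build ribosomes, such as nucleolar processing factors and subunits of RNA polymerase I, had a median difference of 0.31. Higher means were found in 63 of 74, and 40 did not overlap, against 54.6% and 29.9% of all genes. The largest differences were 1.17 for Nhp2, a protein of the particles that modify rRNA, and 1.02 for the assembly factor Rrp12. Lower with no overlap were Dimt1, which methylates 18S rRNA, at -0.75, and Nat10, which acetylates it, at -0.25, and 1 more gene, Utp20. At an adjusted p of 0.05 with limma 0 of 74 were called, and 21 at an unadjusted p under 0.05, 20 of them higher, against 15.5% and 10.8% of all genes. Array 2 was above array 1 in both areas in 42 of 74 (56.8%, against 20.4% of all genes).

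Elongation factors and other genes with TOP mRNAs had a median difference of 0.25. The trabecular mean was the higher in 16 of 19, and 10 of these did not overlap (29.9% of all genes). Gas5, a host of small nucleolar RNAs with a TOP start, had a difference of 0.77 and Btf3, which acts on new peptides at the ribosome, 0.76. Eef2, the factor that moves the ribosome along the mRNA, was the 1 gene lower with no overlap, at -0.18 and -0.08 against 0.26 and 0.16. Npm1, a nucleolar protein that exports ribosomal subunits, had the order of the members, at -0.39 and 0.49 against -0.27 and 0.24. Array 2 was above array 1 in both areas in 11 of 19 genes of this list (57.9%, against 20.4% of all genes), so the order was not particular to the members. With limma 0 of 19 were called at an adjusted p of 0.05, and 1 in each direction at an unadjusted p under 0.05, where 10.8% of all genes were higher and 4.62% lower.

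Initiation factors had a median difference of 0.35, with 20 of 26 above 0 and 16 of these without overlap (29.9% of all genes). Eif5a, which helps ribosomes past hard stretches of peptide, differed by 1.12 and Eif2s3x, a subunit of the factor that brings the first tRNA, by 0.58. Eif5a read -1.47 on long bone array 2, against -0.20 on long bone array 1. Eif4e, which binds the mRNA cap, was the 1 gene lower with no overlap, at -0.28. None of the 26 passed the adjusted threshold with limma (0 of 26), and 6 were higher at an unadjusted p under 0.05 (10.8% of all genes). Array 2 was above array 1 in both areas in 11 of 26 (42.3%, against 20.4% of all genes).

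Genes that control ribosome output had a median difference of 0.24, with 20 of 27 above 0 and 12 of these without overlap (29.9% of all genes). Mxd1 and Max, partners in the Myc network, differed by 1.36 and 1.33, and Mdm2, the p53 inhibitor that free Rpl11 binds, by 0.70 with values of 0.31 and 0.30 against -0.40 and -0.39. Lower with no overlap were Deptor, an inhibitor of mTOR, at -0.38, Tsc1, part of the complex that restrains mTOR, at -0.22, and Mycn at -0.13. Mtor itself read -0.15 and 0.01 against -0.06 and 0.10, and Larp1 -0.45 and 0.01 against -0.01 and 0.01. Myc, which drives ribosomal protein genes, read -0.50 and 0.18 against -0.18 and 0.20, with both arrays 2 above both arrays 1. The list did not share this order. Array 2 was above array 1 in both areas in 6 of 27, against 20.4% of all genes. It was below array 1 in both areas in 12 of 27, against 22.8%. The part of Myc in the contrast was not tested. At an adjusted p of 0.05 with limma 0 of 27 were called, and 9 were higher at an unadjusted p under 0.05 (10.8% of all genes).

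**Figure D4:**
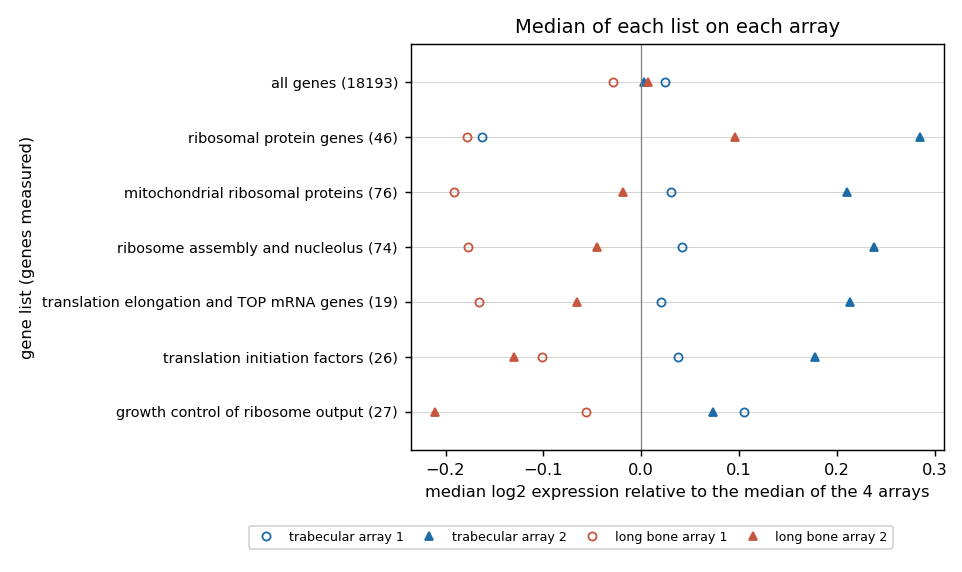
Median of the centred log2 values on each array (horizontal axis) for all genes and for lists of genes of the ribosome and of translation, with the number of genes measured. Blue marks are trabecular and red marks long bone samples, open circles array 1 and filled triangles array 2. For the cytosolic ribosomal protein genes trabecular array 1, at -0.16, lies next to long bone array 1, at -0.18, while for the mitochondrial ones these arrays are at 0.03 and -0.19.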

How the data were processed

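Per the labels' protocols, amplified total RNA carried a biotin label on Affymetrix arrays. The design text names a human chip, but the probe sets are those of a mouse array, whose annotation was used. The deposited values are log2 expression from RMA, per the submitters' processing notes. They were also centred, since each of 45101 probe sets has a median of 0 over the 4 arrays (within 5e-07). The software of the centring is not stated in these sources, nor is the log base, which RMA gives as 2. Centring removes levels but not differences.

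After 64 controls were left out, 34945 of 45037 probe sets had 1 gene, 932 several and 9160 none. Gene values are means over the probe sets of 1 gene alone. By gene ID 34741 probe sets matched RefSeq, and 0 symbols changed. Trabecular minus long bone was fitted over 18193 genes (limma 3.58.1, R 4.3.3, lmFit, eBayes, 2 residual degrees of freedom, no block, two-sided), adjusted with Benjamini-Hochberg and called at 0.05. The fit was tested on simulated data. Array number, 2 per area, limits the precision. Named were members with no overlap and the largest differences (up to 10 per direction), 22 members of known role (15 measured), and in other lists up to 2 genes per direction. Others, such as Rps16, Rps24, Rps25, Rps28, Rpl14, Rpl19, Rpl41, Rps3a1, Utp20, Mtor, Larp1, Myc, Mycn, Mdm2 and Npm1, were chosen after their values were seen. The members and lists were chosen with earlier results of these data known. Listed genes without a value are not analysed here.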

Additional observations from a re-analysis of the deposited data

How the results depend on the processing

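For the ribosomal protein genes the median difference (0.11) stayed between 0.03 and 0.17 under quantile normalization, array medians, bright probe sets, probe sets in place of genes, no _s_at or _x_at probe sets, added paralogs, added Rps3a1 and shared probe sets. The last 2 were chosen after seeing the data. With bright probe sets alone the median over all genes rose to 0.20, above the 0.09 of the members. Centring on the hybridisation controls moved the median of all genes to 0.43 and that of the members to 0.51. There 27 members were higher and 0 lower with no overlap. This centring shifts the differences of all genes by the same amount, and the share of all genes with no overlap was not read. These counts therefore say nothing particular about the members. With limma 15 members had an unadjusted and 3 an adjusted p under 0.05 (Rps9 1.04, Rpl8 0.94 and Rps3 0.73). Over all 18193 genes the corresponding counts were 9538 and 2857. With limma on probe sets 63 of 100 were higher, 19 with no overlap, and 6 at an unadjusted p under 0.05. Of all 45037 probe sets 21998 were higher, 11656 with no overlap, and 7325 at that p. Ordinary t statistics left 1 member at an unadjusted p under 0.05, against 1763 of the 18193 genes.

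With 1 array left out the median ran from -0.11 to 0.37, the genes higher from 17 to 41, those with no overlap from 10 to 33 higher and from 2 to 20 lower, those at an unadjusted p under 0.05 from 2 to 5, and those at the adjusted threshold stayed at 0. Over all 18193 genes 1603 passed the adjusted threshold without long bone array 1, with 5458 at an unadjusted p under 0.05, and 0 or 1 without each other array. A lone array is then assumed to vary like the others, so no conclusion is drawn from the counts by p. With an array left out the areas also part without overlap more easily, whatever the gene. The share of all genes with no overlap was not read in these settings. The counts of members with no overlap therefore say nothing particular about the members.

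The labels do not say that replicate numbers pair the samples. Deviations of equal numbers correlated at -0.115 over all genes and at 0.121 over the 46 members. A correlation over genes takes off the mean of each set of deviations, so a step shared by the members does not enter it. The value over the members therefore cannot show whether arrays of equal number moved together. With the replicate block in limma 3 members had an unadjusted p under 0.05 and 0 passed the adjusted threshold. With the numbers crossed, added after seeing the data, these counts were 2 and 0. Over all 18193 genes they were 2450 and 0 with the block, and 2709 and 0 with the numbers crossed.

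Of 257 values of the 22 named genes 234 kept their sign. On the hybridisation controls Rpl39 turned to 0.12, Rps4x to 0.35, Rpl3l to 0.38, Rpl38 to 0.31 and Rplp2 to 0.083, and Rpl3l to 0.0052 after quantile normalization. With 1 array left out 10 genes turned, over ranges of -0.030 to 0.32 for Rps14, -0.40 to 0.50 for Rps19, -0.23 to 0.36 for Rps27, -0.20 to 0.63 for Rps27l, -0.042 to 0.20 for Rpsa, -0.20 to 0.11 for Rps4x, -0.15 to 0.10 for Rpl3l, -0.30 to 0.53 for Rpl22, -0.45 to 0.28 for Rpl38 and -0.91 to 0.28 for Rplp2. The cause was not tested.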
